A study of Mus musculus with 10 samples.

Results

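Phlda3 is described here through the ChIP-seq peaks that lie around it on chromosome 1, in mouse embryonic stem cells with and without DNA damage. ChIP-seq (chromatin immunoprecipitation followed by sequencing) lists the stretches of genome, called peaks, where a protein or a histone modification is enriched. The members are all peaks that overlap mm9 chr1:137640000-137690000, and there are 23 of them among the 543779 peaks of the 10 deposited lists. The locus was chosen by its H3K4me3 peaks: the H3K4me3 list of Adriamycin-treated cells holds a wide peak over the gene and the H3K4me3 list of untreated cells holds none within 5 kb. The H3K4me3 values below are therefore a description. The lists of the other targets were not used by that rule, but they are not independent of it. Peaks of RNA polymerase II and H3K79me2 were listed more often at high-scoring H3K4me3 peaks in general.

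All libraries came from R1E embryonic stem cells of a mixed C57BL/6X129Sv background, below 20 passages, grown with serum and leukemia inhibitory factor. One condition was untreated, and the other received 0.5 uM Adriamycin for 8 h. Adriamycin (doxorubicin) is a topoisomerase II poison that breaks DNA. The 5 targets were H3K4me3, RNA polymerase II (Pol II), H3K79me2, H3K27me3 and the RNA-binding protein hnRNP L, each with 1 library per condition. No difference between the conditions can therefore be held against a spread between replicates, and the treatment was not tested. The cell type was not checked against marker genes, since no annotation on mm9 was used here.

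Phlda3 encodes a small protein made up largely of a pleckstrin homology domain. It competes with the kinase Akt for membrane lipids and so restrains Akt signalling, and it is a well-known transcriptional target of p53, the factor that is stabilised when DNA breaks. H3K4me3 marks the start sites of active and poised genes, H3K79me2 is laid down by Dot1l over the first part of transcribed genes, and H3K27me3 is the mark of Polycomb repression. Phlda3 spans about 137662600-137665800 by the coordinates given for it. RefSeq places it on the plus strand between Csrp1, a LIM-domain protein gene, and Tnni1, a troponin gene, in the order of genes on GRCm38.p6. The peaks of the window away from Phlda3 were not assigned to either neighbour.

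The 250 bases before the start of Phlda3 are shown because they lie in the stretch that the H3K4me3 list covered only after Adriamycin, when the gene start given on mm9 is used. They are from RefSeq, build GRCm38.p6, plus strand, chr1:135765835-135766084, and capitals mark each GGGCGG or its reverse complement CCGCCC.
Phlda3: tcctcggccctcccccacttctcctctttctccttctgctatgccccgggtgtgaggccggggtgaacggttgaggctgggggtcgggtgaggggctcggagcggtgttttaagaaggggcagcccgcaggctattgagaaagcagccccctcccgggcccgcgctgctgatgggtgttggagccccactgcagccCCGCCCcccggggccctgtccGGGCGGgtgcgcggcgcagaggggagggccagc
This stretch is rich in G and C, at 71.2% of its bases against a median of 52.4% over the 32851 RefSeq promoter windows of the same length, and 7.83% of those windows reach that value. It holds 18 CG dinucleotides, against a median of 6, and 21.7% of windows hold as many. The 2 matches to GGGCGG on either strand begin 54 and 33 bases before the start. At least 1 match is held by 32.7% of windows, and at least 2 by 16.7%. Neither TATAAA nor its reverse complement occurs in it, as against 12.4% of windows with a match. An exact match to the p53 response element half-site RRRCWWGYYY (R is A or G, W is A or T, Y is C or T) was not found in these 250 bases. Such a match occurs in 7.13% of windows. Half-sites with mismatches were not searched for, so one may lie in the stretch unseen. The letters CATG, a frequent centre of that element, occur at base 46 after the start, where only 1 further base was available, so a whole element there could not be read.

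H3K4me3 covered the whole of Phlda3 in the Adriamycin list and none of it in the untreated list. The Adriamycin peak ran over chr1:137661727-137668488, which is 6762 bp. It began 873 bp before the gene start and ended 2688 bp after the gene end. Its score, the peak caller's own value, was 3100, a level at which the scale of the H3K4me3 lists piles up: 9080 of the 41705 Adriamycin peaks (21.8%) scored at least this. In the untreated list no peak lay between 137626810 and 137684553, a stretch of 57744 bp. A peak list shows nothing of signal below its threshold, so an absent peak is not an absent mark.

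**Figure D1:**
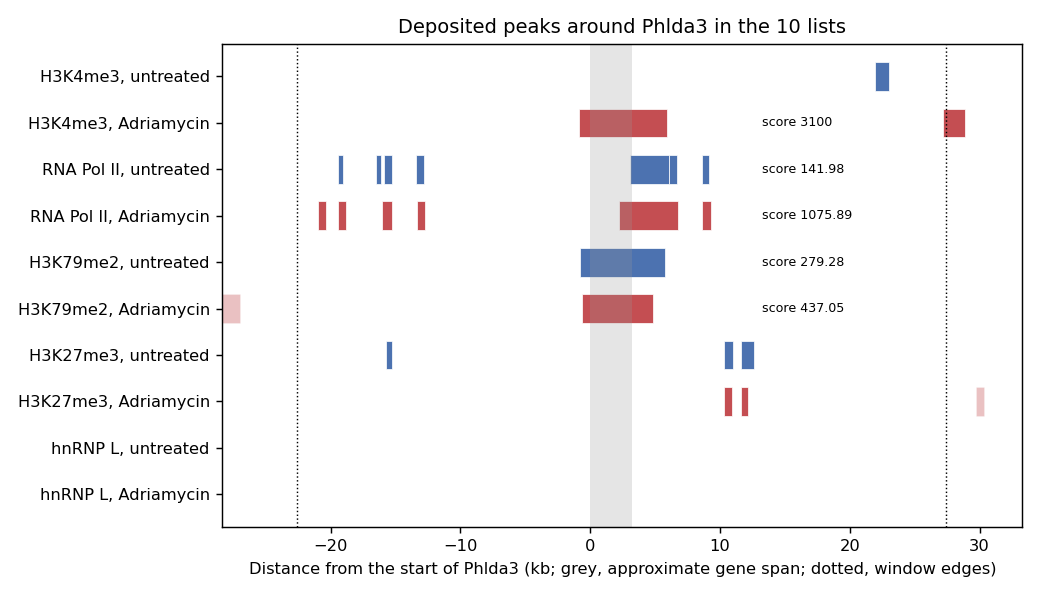
Peaks of the 10 lists around Phlda3, 1 row per list, against the distance in kb from the approximate start of the gene (blue, untreated; red, Adriamycin; pale bars lie outside the window). The 5 peaks that touch the span of the Adriamycin H3K4me3 peak have their score printed at the right of their row, and the untreated H3K4me3 row is empty there while Pol II and H3K79me2 have a bar in both conditions.

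The nearest strong H3K4me3 peaks on either side were listed in both conditions. On the side before the gene, the peaks were at 137625007-137626809 in untreated cells (score 2149.93) and at 137625123-137627054 after Adriamycin (score 2348.77). On the far side they were at 137714556-137716267 (score 2206.17) and 137714688-137716143 (score 1882.45). Phlda3 thus lies between 2 strong H3K4me3 peaks that both lists share. Each list held 1 further weak H3K4me3 peak in the window, neither with a partner in the other list. The untreated one was at 137684554-137685587 (score 62.94), and the Adriamycin one at 137689812-137691450 (score 84.75), of which only 189 bp lie inside the window. Over the whole lists, 5558 of 38421 untreated and 6596 of 41705 Adriamycin H3K4me3 peaks overlapped no peak of the other list.

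Regions of H3K4me3 found only after Adriamycin were common but mostly weak and narrow, and the Phlda3 region stood at their far end. Of all Adriamycin H3K4me3 peaks, 4222 (10.1%) had no untreated peak within 5 kb, with a median width of 511 bp and a median score of 76.43. The Phlda3 region was the widest and the highest-scoring of these. The next in score, at chr5:143189772-143195099, reached 2045.13 over 5328 bp. Among the 9080 Adriamycin peaks with a score of at least 3100, Phlda3 was the 1 peak without an untreated peak within 5 kb. In the other direction, 2664 untreated peaks (6.93%) had no Adriamycin peak within 5 kb. With a score of at least 1000 these were 4 of 14331, against 10 of 14649 in the Adriamycin list. With a score of at least 3100 they were 0 of 9209. When only overlap was asked for, 1 Adriamycin peak with a score of at least 3100 and 2 untreated ones had no partner, so a lone peak at this score was not limited to the Adriamycin list. At a score of at least 1000 the counts by overlap were 15 Adriamycin and 13 untreated peaks. At a score of at least 500 they were 51 and 64. These values chose the locus and are given without a test.

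The distance rule did not decide whether Phlda3 was included, since its nearest untreated peak was 16065 bp away. Among Adriamycin peaks with a score of at least 1000, the nearest to the 5 kb limit on the outside was the same chromosome 5 region, 6404 bp from an untreated peak. On the inside it was chr15:77585932-77587469, 4549 bp away with a score of 1017.22. At the edges of the window, an H3K79me2 peak at 137634260-137635641 (Adriamycin, score 121.1) and an H3K27me3 peak at 137692332-137692960 (Adriamycin, score 59.84) fell just outside.

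**Figure D2:**
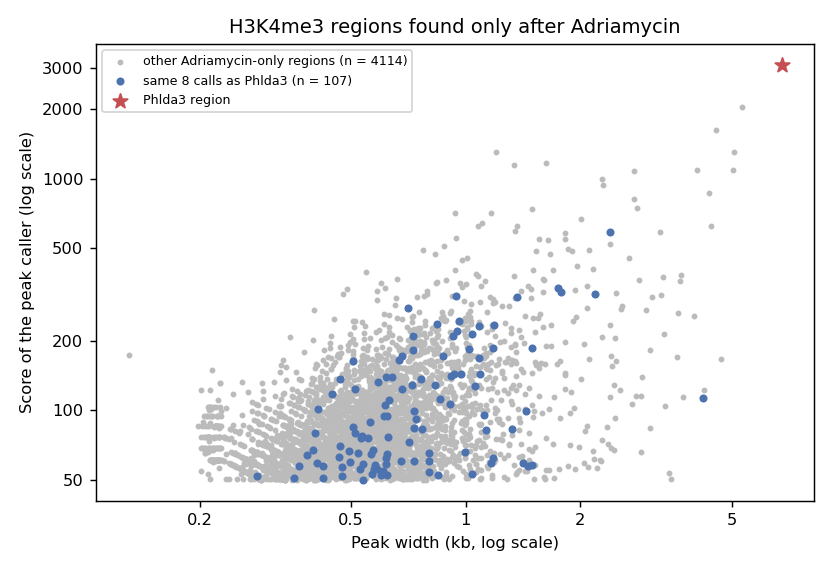
Width (kb, log scale) and score (log scale) of the 4222 H3K4me3 regions found only after Adriamycin, 1 point per region. Phlda3 (star, 6762 bp, score 3100) is at the top right, and the 107 other regions with the same calls in the 8 lists of the other targets (blue) have a median width of 679 bp.

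H3K79me2 was present over Phlda3 in both conditions, so a mark of transcribed genes was listed there before treatment. In untreated cells its peak ran over 137661808-137668366 (6559 bp, score 279.28). Its ends lay 81 bp inside the start and 122 bp inside the end of the H3K4me3 peak that the other condition held, and it covered 97.0% of that span. After Adriamycin the peak ran over 137661997-137667397 (5401 bp, score 437.05), or 79.9% of the span. Both H3K79me2 peaks covered the gene span in full, and the difference lay mainly at the far end, which was 969 bp nearer to the gene after Adriamycin.

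The H3K79me2 peak was 1158 bp narrower in the Adriamycin list. H3K79me2 peaks that matched 1 to 1 had a median difference of -84 bp over 27859 pairs, and 2.47% of pairs had a difference of -1158 bp or below. Within Adriamycin H3K4me3 peaks that held H3K79me2 in both conditions, fewer bases were covered after Adriamycin in 7054 of 13465 (52.4%), and among the 964 of at least 4 kb in 72.1%. More bases were covered in 17.0% and 18.4%, and the rest were equal. A difference of -1158 bp or below was found in 1.83% of the 13465. A narrower H3K79me2 peak at Phlda3 is therefore in the direction that most wide H3K4me3 peaks had, with 8.92% of them at -1158 bp or below. The whole Adriamycin H3K79me2 list also held more and narrower peaks. It had 71959 with a median width of 934 bp, against 63053 with 1143 bp in the untreated list. Whether this set the direction was not tested.

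Pol II was listed over the end of Phlda3 and the sequence beyond it in both conditions, with a wider peak after Adriamycin. In untreated cells the peak ran over 137665628-137668668 (3041 bp, score 141.98), so that it began 3028 bp after the gene start and shared 173 bp with the gene span. After Adriamycin it ran over 137664806-137669394 (4589 bp, score 1075.89), began 2206 bp after the gene start and shared 995 bp with the gene span. Neither list held a Pol II peak over the gene start. In its own list the untreated peak ranked at 35980 of 81069 by score, and the Adriamycin peak at 3048 of 59426, and such ranks from lists of different length show no change by themselves.

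As deposited, the Pol II peak was 1548 bp wider after Adriamycin. A second untreated peak, at 137668694-137669296 (score 65.46), began close to the end of the first and also lay under the Adriamycin peak. When peaks within 0.1 kb of each other were joined, the widths were 3669 and 4589 bp, a difference of 920 bp. In lists joined this way, 33457 Pol II peaks matched 1 to 1, with a median difference of -64 bp, and 510 of them (1.52%) had a difference of at least 920 bp. Among the 914 pairs with a mean width of at least 3 kb, 55 (6.02%) did, and 291 (31.8%) were wider after Adriamycin at all.

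Inside the span of the H3K4me3 peak, Pol II covered 2861 bp (42.3%) in untreated cells and 3683 bp (54.5%) after Adriamycin. Of 19059 Adriamycin H3K4me3 peaks with Pol II in both conditions, 6201 (32.5%) had more Pol II bases after Adriamycin, and the median difference was -44 bp. A difference of at least the 822 bp seen at Phlda3 was found in 1.2% of them. Wider peaks allow larger differences, and among the 982 of at least 4 kb, 283 (28.8%) had more Pol II bases and 78 (7.94%) had at least 822 bp more. More bases under Pol II peaks, as at Phlda3, is thus the less common direction among H3K4me3 peaks of at least 4 kb. The Adriamycin Pol II list was shorter than the untreated one, with 59426 peaks against 81069. In it 0.453% of peaks scored at least 3100, against 2.98% in the untreated list. Whether this set the direction of the background was not tested. With 1 library each, the size cannot be set against replicates.

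The remaining Pol II peaks of the window, apart from the peaks over the gene, were short, between 364 and 724 bp. Of 7 untreated and 6 Adriamycin Pol II peaks in the window, those over the gene included, 6 and 5 overlapped a peak of the other condition. The share over all Pol II peaks by this rule was not taken, so these counts are a description. By a stricter rule, 34676 peaks of the whole lists (81069 untreated, 59426 Adriamycin) matched 1 to 1. Before the gene, 4 peaks stood in each list, of which the untreated one at 137646689-137647342 (score 216.85) and the Adriamycin one at 137643143-137643773 (score 153.09) scored highest. Beyond the gene, a peak at 137671204-137671734 in untreated cells (score 103.86) recurred at 137671198-137671921 (score 73.6). Over the whole window Pol II covered 6203 bp in untreated cells and 7844 bp after Adriamycin, a difference of 1641 bp. Of 19019 windows of 50 kb with Pol II in either condition, 819 (4.31%) had a difference at least as high, and the median was -475 bp.

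H3K27me3 did not reach Phlda3 in either list, which was the common state. Of Adriamycin-only H3K4me3 regions, 20.0% overlapped an untreated and 15.0% an Adriamycin H3K27me3 peak. For H3K4me3 peaks with an untreated partner and a score of at least 3100 the shares were 21.6% and 18.5%. The nearest peaks lay beyond the gene, at 137672909-137673605 (score 81.99) and 137674192-137675215 (score 144.76) in untreated cells. Both recurred after Adriamycin in narrower form, at 137672930-137673538 (score 63.85) and 137674234-137674782 (score 73.73). A further untreated peak, at 137646827-137647343 (score 78.28), lay over the highest-scoring untreated Pol II peak before the gene and had no partner after Adriamycin. It was a weak peak, since 62.5% of its list scored at least this, and the Adriamycin list was shorter (88365 peaks against 97639). The share of all H3K27me3 peaks with a partner was not taken, so these overlaps are a description. H3K27me3 covered 2238 bp of the window in untreated cells and 1158 bp after Adriamycin. The difference of -1080 bp is within the common range, since 64.5% of 24504 windows with H3K27me3 had a difference at least as high. The H3K79me2 difference of -1158 bp was likewise within the common range for whole windows, with 66.6% of 11296 windows at least as high and 33.4% at or below it. Against single H3K79me2 peaks matched 1 to 1 it was uncommon, with 2.47% of pairs at or below it. For H3K4me3, which chose the locus, the window held 1034 bp and 6951 bp, and 21 of 20207 windows (0.104%) had a difference at least as high. hnRNP L had 0 peaks in the window in both conditions, from lists of only 1120 and 1022 peaks.

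**Figure D3:**
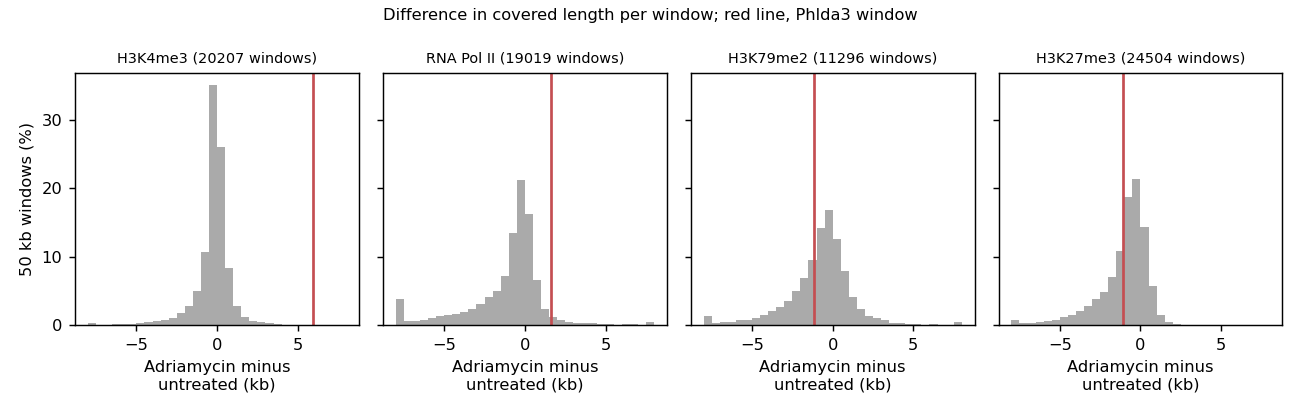
Share (%) of 50 kb windows by their difference in covered length, Adriamycin minus untreated (kb), for windows with a peak of the target in either condition; differences beyond 8 kb are placed in the end bars. The red lines mark the Phlda3 window, at 5917 bp for H3K4me3, 1641 bp for Pol II, -1158 bp for H3K79me2 and -1080 bp for H3K27me3.

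Pol II and H3K79me2 in both conditions was an uncommon state among regions whose H3K4me3 was found only after Adriamycin. Of the 4222 such regions, 110 (2.61%, exact Clopper-Pearson 95% interval 2.15 to 3.13%, for counting error only) had it, and 2115 (50.1%) overlapped no peak of the other targets in any of the 8 lists. Of the 10 regions with a score of at least 1000, Phlda3 was the 1 with both in both conditions. Among H3K4me3 peaks that overlapped an untreated peak, 9299 of 35109 (26.5%) had this state, and at a score of at least 3100 it was 6368 of 9079 (70.1%, interval 69.2 to 71.1%). By its Pol II and H3K79me2 calls Phlda3 thus had the state held by most shared H3K4me3 peaks of its score, while 9 of the 10 highest-scoring Adriamycin-only regions did not. Presence asks for 1 bp of overlap only, which a wide region reaches more easily. The Phlda3 region had 6762 bp, against a median of 511 bp for Adriamycin-only regions and 1060 bp for all Adriamycin H3K4me3 peaks. The state also does not ask where Pol II lay, which at Phlda3 was over the gene end and beyond. Regions of a list are not replicates, and the difference between these shares was not tested.

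**Figure D4:**
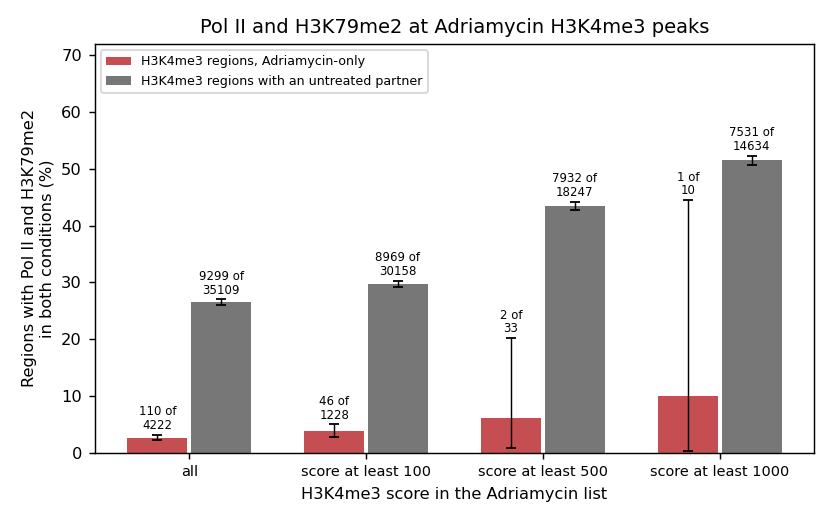
Share (%) of Adriamycin H3K4me3 peaks that held Pol II and H3K79me2 peaks in both conditions, by minimum score, for regions without an untreated peak within 5 kb (red) and for peaks overlapping an untreated peak (grey); bars are exact Clopper-Pearson 95% intervals and the numbers are regions with the state of all regions. The share is 2.61% against 26.5% without a minimum score, and 1 of 10 against 7531 of 14634 at a score of at least 1000.

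The regions most like Phlda3 were those with the same presence or absence in each of the 8 other lists, that is a Pol II peak and an H3K79me2 peak before and after treatment, and neither H3K27me3 nor hnRNP L in any. There were 108 of them with Phlda3 (2.56%), and the other 107 had a median score of 83.55. The 5 highest-scoring are named. The first, chr14:120705595-120707982, had an H3K4me3 score of 586.01 over 2388 bp, with Pol II over 273 bp of it in untreated cells and 525 bp after Adriamycin. At chr7:19622542-19624284 (score 337.28) Pol II covered 1001 and 1257 bp, and at chr2:20481348-20483123 (score 324.26) 579 and 576 bp. At chr9:45198575-45200763 (score 317) the order was the opposite of that at Phlda3, with 2189 bp in untreated cells and 374 bp after Adriamycin. At chr4:148974077-148975020 (score 312.73) they were 689 and 747 bp. Pol II thus covered more bases after Adriamycin in 3 of these 5, against 32.5% of all Adriamycin H3K4me3 peaks with Pol II in both conditions. H3K79me2 covered 1854 and 1999 bp, 1544 and 579 bp, 1724 and 1776 bp, 583 and 31 bp, and 944 and 867 bp of the regions in that order, untreated first. It was lower after Adriamycin in 3 of the 5, against 52.4% of all Adriamycin H3K4me3 peaks with H3K79me2 in both conditions. In 17.0% of those it was higher, and in the rest equal. The 5 were taken by score and the directions in the rest of the 107 were not counted, so no shared pattern is read from them.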

How the data were processed

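Per the submitters' processing notes, the tools named were CASAVA 1.8.2 and MACS 1.4.1 and the build was mm9. The use of a control library, the handling of duplicate reads and the read depth were not given in the sources used here. How sensitive each list is cannot be known. The authors deposited 1 peak list per library, with a score for each peak, which MACS of this generation writes as 10 times the negative log10 of its p-value; the score was used to describe, rank and filter peaks. The same minimum score was in places applied to both lists of a target, although a score depends on the depth of its library. Peaks were taken as deposited, and the coordinates printed here are 1-based. Presence meant an overlap of at least 1 bp. Covered length was the number of bases under peaks. Windows of 50 kb tiled the numbered chromosomes and X. Regions called most alike had the same 8 calls, and the 5 with the highest score were named. A list of other p53 targets was planned but not run without an mm9 annotation. Routines were tested on simulated data. The locus, the rules and the alternatives were chosen with earlier results of these data known. The minimum widths of 3 and 4 kb, the joining of Pol II peaks and the comparison of widths were chosen after the values were seen. Python 3.11.15, numpy 2.4.6, SciPy 1.17.1, pandas 2.3.3 and matplotlib 3.10.9 were used.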

Additional observations from a re-analysis of the deposited data

How the results depend on the processing

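No paired analysis was possible because each target had 1 library per condition and the labels carry no replicate numbers. The 4 calls at the Phlda3 peak (Pol II and H3K79me2, each in both lists) held when 50% of the shorter peak had to overlap, with a score of at least 100 and with lists reduced to equal numbers of peaks. The Pol II difference in the window of 1641 bp was 3618 bp with lists of equal length (top-scoring peaks), which leaves out weak untreated peaks, and 822 bp within the span of the H3K4me3 peak. The H3K27me3 difference was 0 in that span and -21 bp with 5 kb added on each side, where few or no peaks lie. The Pol II width difference of 1548 bp was 920 bp with peaks within 0.1 kb or within 1 kb joined, an alternative added after seeing the data. The share of 2.61% was 1.74% with no untreated peak within 10 kb, 5.11% with no overlapping untreated peak, 2.11% with an overlap of at least 50%, 3.75% for regions with a score of at least 100 and 1.26% with that minimum for the other targets. For windows with H3K4me3 in either condition, for a score of at least 100 and for lists of equal length, the shares of windows at least as high as Phlda3 were 3.62, 3.35 and 2.64% for Pol II, 83.3, 64.2 and 58.4% for H3K79me2, and 68.7, 55.3 and 68.3% for H3K27me3. Except where the construction of the alternative shows it, the cause was not tested. No alternative turned a direction.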

Other observations

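Of the 9 other Adriamycin-only H3K4me3 regions with a score of at least 1000, the one closest to Phlda3 in its other calls was chr1:89572063-89577138, with an H3K4me3 score of 1300.63 over 5076 bp. It was singled out after its values were seen. Like Phlda3 it held H3K79me2 in both conditions, over 4393 bp in untreated cells and 4341 bp after Adriamycin. Unlike Phlda3 it held Pol II only in the Adriamycin list, over 2117 bp (score 131.76), and its nearest untreated H3K4me3 peak was 67239 bp away. Phlda3 and this region are the 2 of the 10 with H3K79me2 in both lists.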
